A study of Bos taurus with 32 samples.

Results

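The genes described here were broadly expressed and had a higher share of the pituitary RNA in every calf from an in vitro produced embryo than in every control calf, while the same calves overlapped in the hypothalamus, testicle and adrenal. They number 150 of the 27607 Ensembl gene IDs counted. The RNA came from Holstein bull calves. In 4 calves (3208, 3209, 5833 and 5841) the embryo had been produced in vitro (IVP). In the 4 controls (3213, 3217, 3218 and 5932) it had been conceived in vivo by ovarian superstimulation and artificial insemination (MOET). All embryos were carried by recipient cows, so embryo transfer is shared by both groups. Tissue was collected at 98 to 104 days of age, except for MOET calf 3213, which was 144 days old. Each calf gave 1 poly(A) library of each tissue, 32 libraries in all, and replicates within a group are separate animals. Members were selected on the measured values, so their separation in the pituitary, and their overlap elsewhere, describe the selection and are not findings.

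The pituitary releases the hormones that drive growth, lactation, stress responses, thyroid activity and reproduction, under control of factors from the hypothalamus. The adrenal and the testicle are among its targets and produce steroid hormones. Genes expressed at similar levels in all of these organs commonly serve general cell functions such as transcription, RNA processing, protein synthesis and transport, in contrast to hormone genes, which can take a large part of the RNA of 1 gland. No table used here pairs the Ensembl IDs with gene symbols, so the functions of the members are not described, members are called by their rank, and the tissue labels could not be checked against marker genes.

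Before any comparison, 5 of the 32 libraries stood apart in how closely they matched their own group. Each library was set against the scaled geometric mean of the other 3 libraries of its tissue and origin, over genes with at least 50 counts in each of those 3. In the library of MOET calf 3213 from every tissue, and in the adrenal library of IVP calf 5833, 92.2% to 98.4% of genes lay within 5% of that mean. Counting noise alone would leave 71.1% to 74.7% of genes that close. In the other 27 libraries the share was 8.47% to 52.1%, and the typical squared deviation was 2.86 to 96.6 times that of counting noise, against 0.0128 to 0.112 times in the 5. The adrenal library of calf 3213 also listed 38 genes at 0 where each of the other 3 MOET adrenals had at least 50 counts, and adrenal library 5833 listed 50 such genes against 0 to 7 in the other 27 libraries. These 5 columns therefore add no measurement independent of the other 3 in their group. How they came about was not tested, and the sources used here do not say. Results are given with all libraries and also without the 5, which leaves 3 MOET calves in every tissue and 3 IVP calves in the adrenal, and group means ± SD use only the calves with counts of their own. Calf 3213 is also the oldest calf, so its age cannot be told apart from this property.

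The members were found from CPM, each count divided by the library total and multiplied by 1000000. Of all IDs, 11576 had a mean of at least 2 CPM in all 4 tissues, and 9492 of those, called broad genes below, had a highest tissue mean under 5 times the lowest. Among the broad genes, all 4 IVP calves were above all 4 MOET calves in the pituitary for 815 (8.59%) and below them for 355. Of the 815, 143 were also separated upward in the hypothalamus, 373 were separated in the opposite direction in the adrenal, and 64 were separated upward there. The shares of all broad genes separated in the hypothalamus and adrenal are not given here, so no relation between organs is read from these counts. Ranges overlapped in all 3 other tissues for 267 genes, and the 150 with the highest log2 ratio of group means were kept. The mirrored pattern, lower in IVP pituitary alone, held for 218 broad genes. Without the 5 libraries, 265 genes met the selection, 147 of the 150 members among them. Members ranked 1 and 95 dropped out because their adrenal ranges then no longer overlapped. Both had 0 counts in the adrenal library of calf 3213, where the other 3 MOET adrenals had 123 to 289 and 86 to 145 counts.

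The edges of the selection were fine ones. The last 3 members had log2 ratios of 0.299, 0.300 and 0.303, and the first 3 genes beyond the limit of 150 had 0.297, 0.296 and 0.295. The 3 members with the lowest tissue mean had 2.04, 2.08 and 2.13 CPM, and the closest genes left out had 1.96, 1.80 and 1.77 CPM. The ratio of the highest to the lowest tissue mean was 4.92, 4.79 and 4.68 in the 3 members closest to that limit and 5.12, 5.16 and 5.17 in the closest genes left out. Of the 344 broad genes with a pituitary ratio at least as large as that of the last member and no separation elsewhere, 194 had overlapping pituitary ranges.

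In the pituitary the members were a group of small, graded differences. The median ratio of IVP to MOET mean CPM was 1.32-fold, and the log2 ratio ran from 0.30 to 0.95. At least 1.5-fold was reached by 14 members, and 59 were under 1.3-fold. The distance between the lowest IVP and the highest MOET calf was 6.22% in the median member and 0.0583% to 36.0% over all members. It exceeded 10% in 40 members and was under 1% in 22. The smallest count of any member in a pituitary library was 29. In whole tissue, more cells of a type that expresses a gene and more RNA per cell cannot be told apart.

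**Figure D1:**
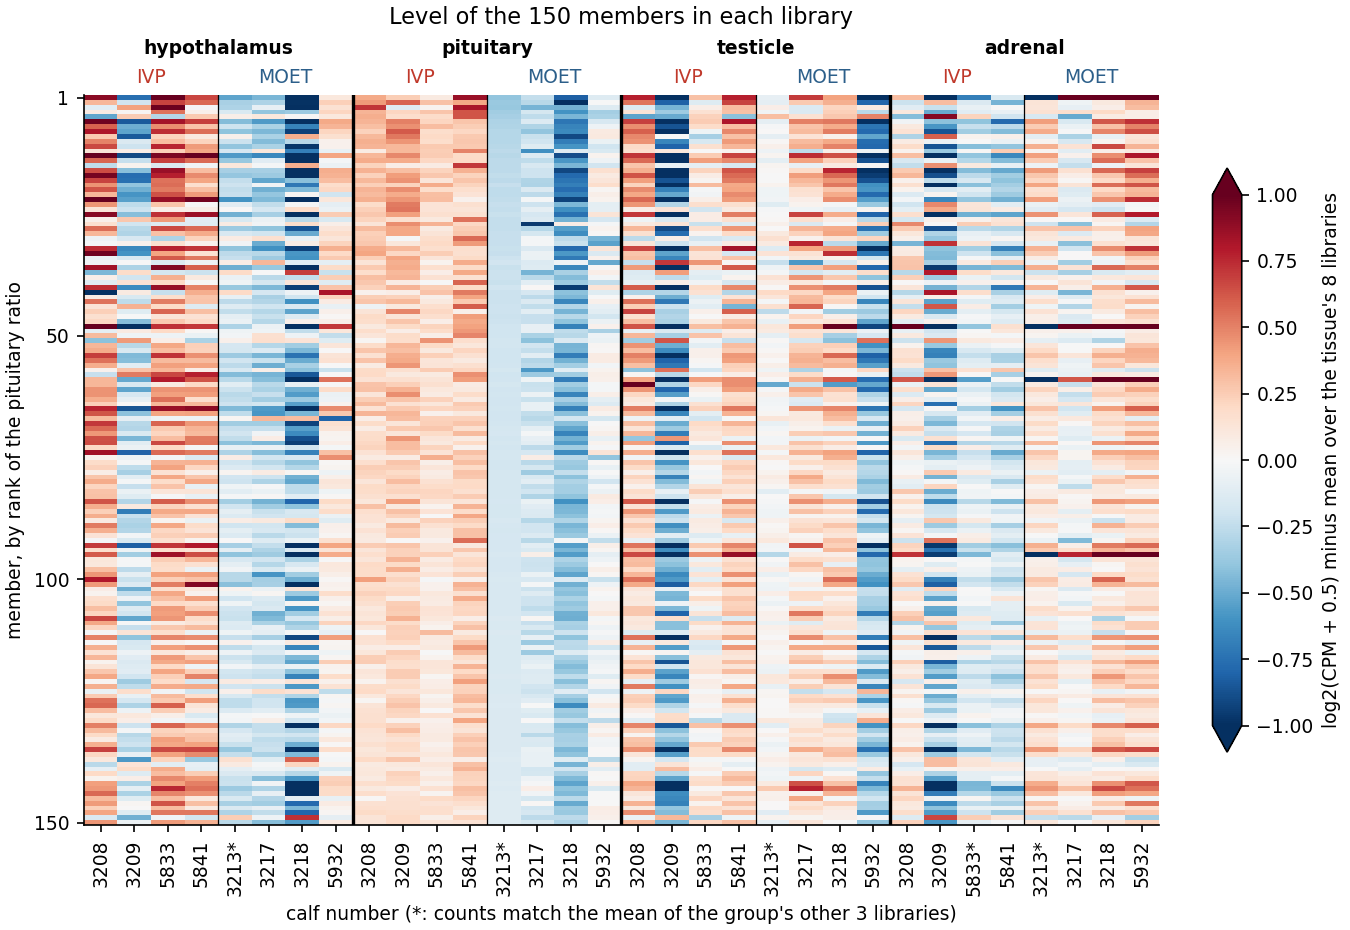
Level of the 150 members (rows, by rank) in the 32 libraries (columns, by calf number), as log2(CPM + 0.5) minus the mean over the 8 libraries of the tissue; asterisks mark the 5 libraries that matched the mean of the other 3 in their group. In the pituitary block, calf 3213 is a smooth pale blue column and calf 3218 the darkest MOET column, while the hypothalamus, testicle and adrenal blocks hold stripes shared by many members within single calves.

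The member ranked 1 was also 1 of the least abundant. Its pituitary level was 3.49, 3.15, 2.78 and 5.09 CPM in IVP calves 3208, 3209, 5833 and 5841, and 2.11, 1.24 and 2.31 CPM in MOET calves 3217, 3218 and 5932, with 1.83 CPM listed for 3213. The IVP mean was 3.63 ± 1.02 CPM (SD, n = 4) and the MOET mean 1.89 ± 0.569 CPM (SD, n = 3). Every IVP calf was above every MOET calf, by 20.1% at the closest point. In the hypothalamus the same gene had 5.97, 1.55, 7.09 and 5.01 CPM in the IVP calves and 2.02, 1.14 and 3.22 CPM in the 3 MOET calves, so only the low value of IVP calf 3209 made the ranges overlap. In the adrenal the order was turned around, with 3.93, 1.12 and 2.72 CPM in IVP calves 3208, 3209 and 5841 and 6.60, 8.74 and 15.4 CPM in the MOET calves.

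The member ranked 2 had its highest level in the pituitary. The IVP calves had 11.6, 13.0, 10.6 and 11.3 CPM there and the MOET calves 3217, 3218 and 5932 had 6.95, 3.89 and 8.48 CPM. The pituitary ratio of means without the 5 libraries was 1.80-fold. Its hypothalamus levels were lower, 2.97 ± 0.842 CPM in IVP (SD, n = 4) and 1.72 ± 0.904 CPM in MOET (SD, n = 3), with a ratio of 1.73-fold and overlapping ranges. In the adrenal its IVP mean was 3.15 ± 1.03 CPM, below the MOET mean of 3.78 ± 0.578 CPM (SD, n = 3 each).

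The members ranked 4 and 121 are given by their IDs, ENSBTAG00000004587 and ENSBTAG00000054656, because they were past the threshold in a contrast described below. That choice was made after their values were seen, and the selection of the members fixes the direction of the contrast. ENSBTAG00000004587 had 66.1, 60.7, 63.5 and 80.7 CPM in the IVP pituitaries and 46.2, 34.3 and 41.1 CPM in the pituitaries of MOET calves 3217, 3218 and 5932. Calf 3213 was listed at 40.9 CPM. The lowest IVP calf was 31.4% above the highest MOET calf. Levels were lower and overlapped in the other organs, at 19.7 ± 3.71 CPM in IVP hypothalamus (SD, n = 4) against 15.4 ± 4.01 CPM in MOET (SD, n = 3). In the testicle the means were 21.4 ± 3.96 and 19.7 ± 3.83 CPM, and in the adrenal 23.7 ± 4.98 CPM for the IVP calves against 28.9 ± 1.38 for the controls.

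The member ranked 5 had the widest gap, 36.0%. Its pituitary levels were 17.7, 15.4, 15.5 and 21.3 CPM in IVP and 11.3, 9.75 and 10.8 CPM in MOET calves 3217, 3218 and 5932. It was far more abundant in the hypothalamus, where the IVP calves spread from 35.8 to 61.8 CPM around the MOET values of 51.7 to 55.2 CPM. In the testicle, 3 IVP calves had 9.10 to 9.89 CPM, under all MOET calves, and the fourth, 5833, had 15.7 CPM.

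ENSBTAG00000054656, ranked 121, had 54.5, 59.3, 55.4 and 70.7 CPM in the IVP pituitaries and 48.6, 39.6 and 53.9 CPM in MOET calves 3217, 3218 and 5932. The gap between groups was 1.16%. In the hypothalamus the IVP mean was the lower one, 68.4 ± 11.0 CPM (SD, n = 4) against 75.8 ± 2.37 CPM in MOET (SD, n = 3). The IVP means were also the lower ones in the testicle, 23.0 ± 2.96 against 25.9 ± 4.32 CPM, and in the adrenal, 13.6 ± 1.80 against 16.5 ± 2.25 CPM.

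Among the most abundant members, that ranked 139 led with 772, 758, 762 and 907 CPM in IVP pituitary and 631, 626 and 668 CPM in MOET calves 3217, 3218 and 5932. Next came the member ranked 27, with 283, 358, 330 and 299 CPM in IVP pituitary and 133, 274 and 257 CPM in those MOET calves. Its MOET mean of 221 ± 76.6 CPM (SD, n = 3) was pulled down by calf 3217, and the IVP and MOET calves closest to each other differed by 3.53%. In the adrenal it was far higher, with 1645, 1189 and 1315 CPM in IVP calves 3208, 3209 and 5841 and 884 to 1196 CPM in the MOET calves.

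**Figure D2:**
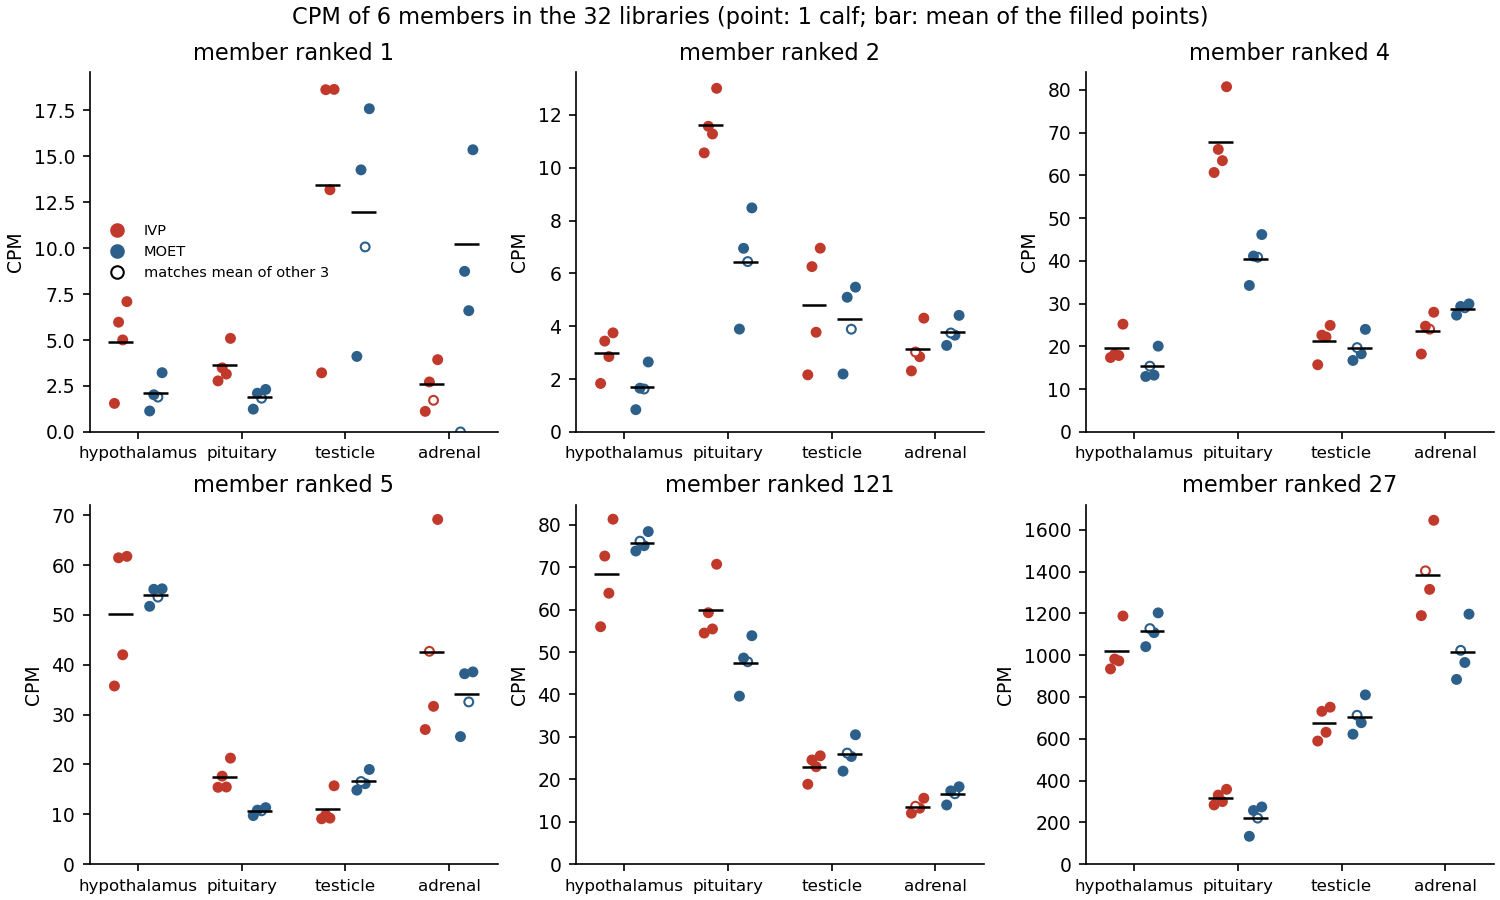
CPM of 6 members in each tissue, IVP calves in red and MOET calves in blue; open points are libraries that matched the mean of the other 3 in their group, and bars are means of the filled points. For the member ranked 4 the IVP pituitaries lie at 60.7 to 80.7 CPM and the MOET pituitaries at 34.3 to 46.2 CPM, while the groups overlap in the other 3 tissues; the open point at 0 is the adrenal of calf 3213 for the member ranked 1.

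Separation in the pituitary depended on few calves at the edges. The lowest IVP calf was 5833 for 76 members, 5841 for 30, 3208 for 24 and 3209 for 20. The highest MOET calf was 5932 for 120 members, 3217 for 24 and 3218 for 6. Calf 3218 was the lowest MOET calf for 127 members. Calf 3213 was at neither end for any of the 150, so it did not affect the separation itself. As a percentage of the mean over the 8 pituitary libraries, the median member stood at 111.5% in IVP calf 3208, 116.2% in 3209, 107.5% in 5833 and 115.7% in 5841. In MOET calves 3217, 3218 and 5932 it stood at 87.9%, 74.0% and 98.2%. The median of all broad genes was 96.8% to 109.1% in the IVP libraries and 95.6%, 87.0% and 109.8% in those MOET libraries. MOET calf 5932, the closest to the IVP calves for the members, was therefore the highest of all pituitaries for broad genes in general.

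CPM is a share, so the part of a library taken by its most counted genes moves with it. The 100 most counted genes held 38.1% to 45.2% of the counts in IVP pituitaries and 45.6%, 50.3% and 38.1% in MOET calves 3217, 3218 and 5932. Calf 3218, with the largest such share, had the lowest median for members and for broad genes alike. With TMM scaling, which sets library sizes from the bulk of genes, 133 of the 150 remained separated in the pituitary. A higher IVP mean there was kept by 150 of 150, beside 55.0% of broad genes. The share of broad genes separated after TMM scaling is not given here, and the members had been selected for both properties. The median log2 ratio of the members was then 0.36, beside 0.02 for all broad genes, against 0.40 and 0.06 with CPM.

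**Figure D3:**
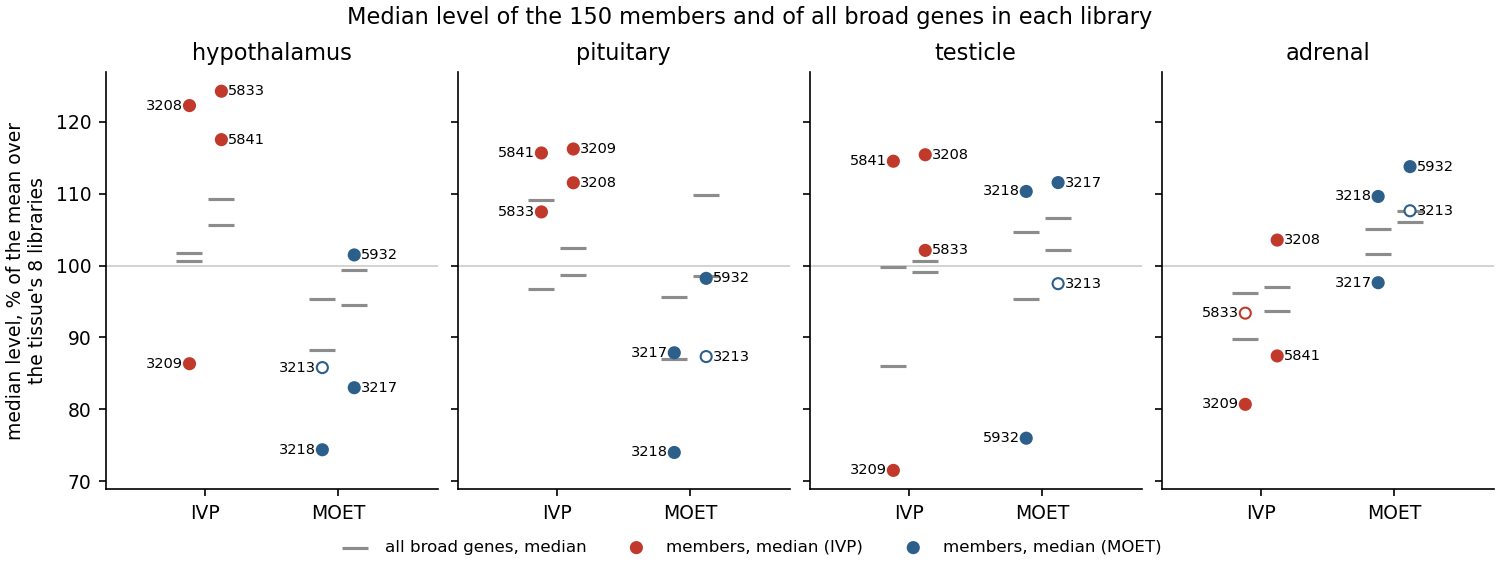
Median level of the members (points) and of all broad genes (gray dashes) in each library, as a percentage of the mean over the tissue's 8 libraries; open points are libraries that matched the mean of the other 3 in their group. In the pituitary the IVP points lie at 107.5% to 116.2% and the MOET points of calves 3217, 3218 and 5932 at 74.0% to 98.2%, while in the testicle IVP calf 3209 and MOET calf 5932 lie far below the others.

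The hypothalamus moved with the pituitary for most members, although the selection required overlap there. The group mean was higher in IVP hypothalamus for 131 of 150 members (all broad genes 69.9%), with a median log2 ratio of 0.42 beside 0.15 for broad genes. Without calf 3213 the count was again 131 and the median 0.42. The hypothalamus ratio exceeded the pituitary ratio in 75 members, and the pituitary ratio was the largest of the 4 tissues in 72. TMM scaling lowered the broad median in the hypothalamus from 0.15 to -0.01, and relative to it the members stayed above, at 0.26. With that scaling 113 of 150 members were higher in IVP, beside 48.4% of broad genes.

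Many of these overlaps in the hypothalamus came from 1 pair of calves. The selection left out genes separated in every pair, and the like counts for broad genes are not given here, so the counts of pairs describe the selection. Over the 16 pairs of an IVP with a MOET calf, 53 members had IVP above MOET in 15. In 49 of the 53 the exception was IVP calf 3209 against MOET calf 5932. Without calf 3213, 57 members were separated in 11 of 12 pairs. The median member stood at 86.3% of the tissue mean in hypothalamus 3209 and at 117.5% to 124.3% in the other 3 IVP calves, and at 101.5% in MOET calf 5932 against 74.4% and 83.0% in 3218 and 3217.

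In the adrenal most members pointed the opposite way. The IVP mean CPM was lower for 120 of 150 members (all broad genes 65.7%), with a median log2 ratio of -0.22 beside -0.16 for broad genes. Of the 150, 66 had IVP above MOET in 1 of 16 pairs, and in 56 of these that pair was IVP calf 3208 with MOET calf 3217. As in the hypothalamus, genes separated in every pair had been left out by the selection, and the like counts for broad genes are not given. Without the 5 libraries, 76 members were above in 1 of 9 pairs and 2 in none. With TMM scaling the direction of the adrenal was no longer clear, with 65 members higher in IVP (broad genes 53.0%). The median was -0.04, beside 0.03 for broad genes. In the testicle the median log2 ratio was 0.03, beside -0.06 for broad genes, and 91 members had a higher IVP mean (broad genes 32.4%). Scaling by TMM raised that to 124 members (broad genes 60.6%) and a median of 0.12 (broad genes 0.04).

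**Figure D4:**
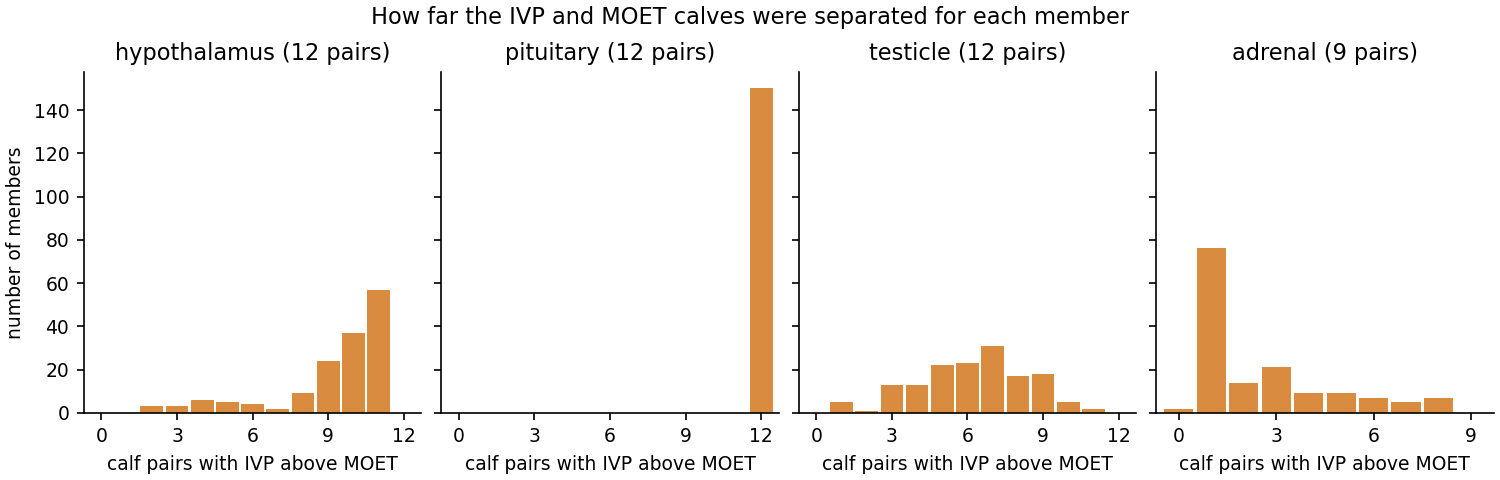
Number of members (vertical axis) by the number of calf pairs in which the IVP calf was above the MOET calf (horizontal axis), without the 5 libraries that matched the mean of their group. All 150 members are at 12 of 12 in the pituitary, 57 are at 11 of 12 in the hypothalamus, and 76 are at 1 of 9 in the adrenal.

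The combination of higher in hypothalamus and testicle and lower in adrenal, by group mean CPM, held for 78 members (52%), against 20.2% of broad genes. The next combination, higher in hypothalamus and lower in the other organs, held for 38 members. It held for 25.3% of members and 37.1% of broad genes. Higher means in all 4 tissues were seen for 7 members. These shares are descriptions, since genes within a library are not independent.

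**Figure D5:**
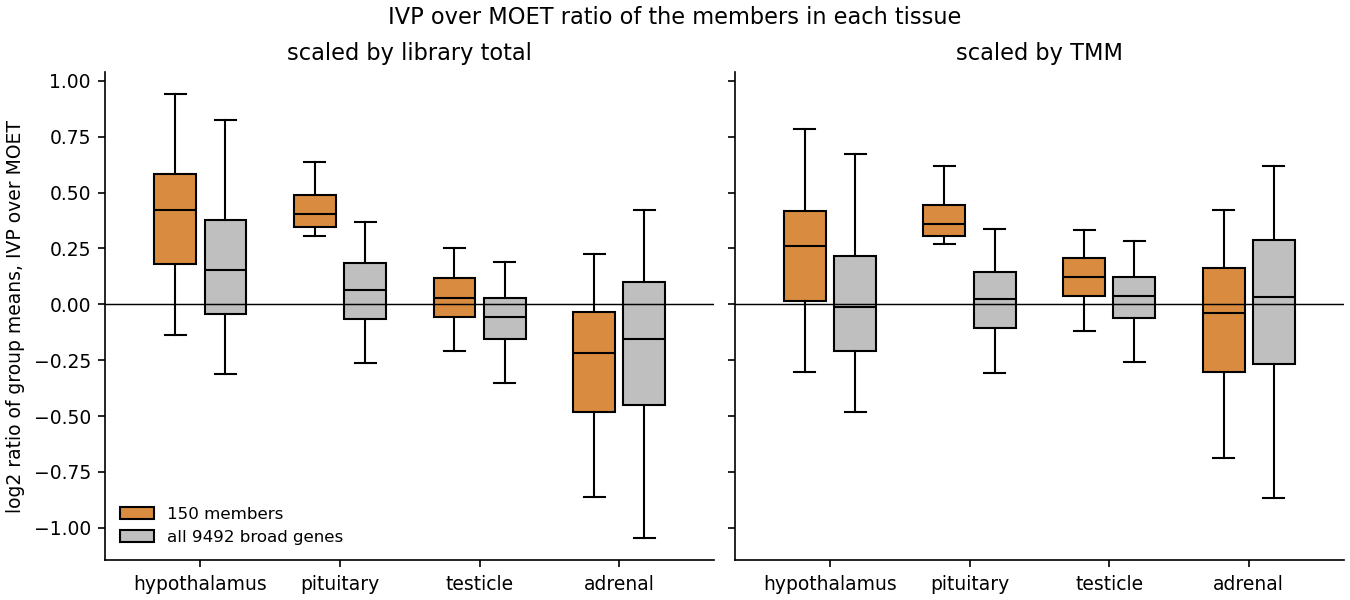
Log2 ratio of group mean CPM, IVP over MOET, for the 150 members (orange) and all 9492 broad genes (gray) in each tissue, scaled by library total (left) or by TMM (right); boxes span the quartiles with the median, whiskers the 5th to 95th percentile. With library totals the member medians are 0.42 in hypothalamus, 0.40 in pituitary, 0.03 in testicle and -0.22 in adrenal, and with TMM 0.26, 0.36, 0.12 and -0.04.

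The test of IVP against MOET in each tissue used edgeR's quasi-likelihood model with Benjamini-Hochberg adjustment over all genes at 0.05. In the pituitary 118 of 150 members were called higher (background of all genes tested 7.51%), a contrast the selection had used, so nothing is read from the count. Without calf 3213 it was 31 (background 1.01%). The fold changes hardly moved, with a median of 0.34 on the log2 scale in both fits, while the median SE went from 0.08 to 0.10. DESeq2's Wald test without that calf called 95 (background 4.43%). Leaving out IVP calf 3208 gave 57 (background 2.39%) and leaving out IVP calf 3209 gave 78 (background 4.11%), and fitting all 32 libraries together gave 18 (background 0.822%).

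Of the 20 members with the largest pituitary ratio, 20 were called with all libraries (background 7.51%) and 7 without calf 3213 (background 1.01%). Among the 50 members of lowest rank, those figures were 38 and 8. By mean CPM, 17 of the top 20 were higher in IVP hypothalamus, 15 in IVP testicle and 3 in IVP adrenal. The shares of all broad genes higher in IVP were 69.9%, 32.4% and 34.3% in these organs.

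In the hypothalamus edgeR called 0 members (background 0.056% in either direction), 42 members had an unadjusted p under 0.05, and DESeq2 called 6 higher (background 3.49%). The share of all genes tested with an unadjusted p under 0.05 is not given here for any tissue or contrast. Nothing is therefore read from the counts of members at that level. Without calf 3213, edgeR called 0 members (background 0.00614% for higher calls), with 11 at an unadjusted p under 0.05. DESeq2 without that calf also called 0 members (background 0.755% for higher calls), with 22 at an unadjusted p under 0.05. In the testicle edgeR called 0 members (background 0.00612%, and 0.00605% for higher calls without calf 3213), 9 had an unadjusted p under 0.05 (5 without that calf), and DESeq2 called 4 higher (background 0.838%). Without that calf DESeq2 called 1 (background 0.236%). In the adrenal 14 members were called higher and 3 lower, against a background of 20.8% and 18.5%. The edgeR calls in the adrenal were lost without the columns that matched the mean of their group, a step that also leaves fewer libraries. Without calf 3213 and adrenal library 5833, edgeR called 0 members in either direction and DESeq2 called 3 higher (background 8.45%) and 2 lower (background 7.15%), and 11 members had an unadjusted p under 0.05 in edgeR. Over all genes the adrenal calls went from 3205 higher and 2863 lower to 2 (0.0128%) and 0 (0.0%).

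The pituitary effect minus the mean effect of the other 3 organs was fitted as 1 contrast over all 32 libraries. It uses the values that chose the members, which were required to separate in the pituitary and to overlap elsewhere, so positive estimates are built in and the contrast is given as a description. The estimate was above 0 for 149 of 150 members, with a median of 0.28 on the log2 scale beside 0.02 for broad genes. In edgeR 2 members were past the threshold (background 0.269%), a count from which nothing is read. These were ENSBTAG00000004587 with a log2 difference of 0.60 (SE 0.14) and ENSBTAG00000054656 with 0.47 (SE 0.11). Without the 5 libraries edgeR called 0 members (background 0.0163%), and 23 had an unadjusted p under 0.05. DESeq2 without them also called 0 members (background 0.109%), and 22 had an unadjusted p under 0.05. The shares of all genes at that unadjusted level are again not given, so nothing is read from these counts. The differences themselves stayed at 0.60 (SE 0.17) and 0.46 (SE 0.14) for the 2 named genes. The pituitary effect was thus not shown to differ from that of the other tissues for any member once these libraries were left out.

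The contrasts with single organs also repeat the selection, and nothing is read from their counts. With all libraries 9 members were past the threshold for a pituitary effect above that of the hypothalamus (background 0.625%), 1 above that of the testicle (background 0.395%) and 11 above that of the adrenal (background 5.09%). None of the 150 was past it against each of the 3 organs in edgeR with all libraries. Without the 5 libraries edgeR called 0 members in each of the 3 comparisons (background 0%, 0% and 0.0271%). There 32, 13 and 32 members had an unadjusted p under 0.05, and the like shares of all genes are not given. With the calf as a block and all libraries, the counts were 8 for the hypothalamus (background 0.636%), 0 for the testicle (background 0.323%) and 39 for the adrenal (background 11.6%).

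Over both origins together, the members were of moderate and similar abundance across organs. The selection had limited the highest tissue mean to under 5 times the lowest, so the similarity is in part built in. Their median mean level was 17.1 CPM in hypothalamus, 22.3 in pituitary, 22.5 in testicle and 20.2 in adrenal, below the broad medians of 29.5, 29.3, 33.9 and 34.2 CPM. The tissue with the highest mean was the testicle for 56 members, the pituitary for 41, the adrenal for 32 and the hypothalamus for 21. The pituitary was the highest tissue for 27.3% of members and 17.9% of broad genes, and the adrenal for 21.3% and 33.0%. These tissue means include the IVP pituitaries, where the members were selected as high. The share for the pituitary may therefore be partly built in, which was not tested.

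In MOET calves alone, the pituitary level was fitted against the mean of the other 3 tissues. The selection had also used these MOET values and the tissue means, so the counts are a description. The pituitary level was higher for 71 members (background 36.1%) and lower for 37 (background 35.3%) in edgeR. Without calf 3213 these counts were 50 (background 29.3%) and 23 (background 28.8%). The share of members called higher was thus 47.3% and 33.3%, and that called lower 24.7% and 15.3%. The clearest member above the other tissues was ranked 63, with 66.1 ± 5.42 CPM in pituitary against 19.3 ± 2.41 in hypothalamus, 44.5 ± 6.35 in testicle and 33.1 ± 4.11 in adrenal (SD, n = 3 each). Its log2 difference was 1.32 (SE 0.08, without calf 3213). The clearest below was ranked 85, with 30.4 ± 4.67 CPM in pituitary, 43.6 ± 8.84 in hypothalamus, 80.9 ± 13.5 in testicle and 114 ± 4.57 in adrenal. Its log2 difference was -1.09 (SE 0.10, without calf 3213).

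Members varied together from calf to calf within a group. Without the 5 libraries, the mean correlation between 2 members over calves, after the group means were removed, was 0.47 in hypothalamus (7 calves), 0.51 in testicle (7 calves) and 0.30 in adrenal (6 calves). For broad genes it was 0.07, 0.07 and 0.04. In the pituitary members and broad genes were alike, at 0.52 and 0.51. These values are descriptions across genes that share libraries and library totals. The selection also used them, and it required overlap in hypothalamus, testicle and adrenal. In hypothalamus and adrenal that overlap often came through the same calves, so part of the shared variation may be built in, which was not tested. The median SD of a member within a group was 0.29 in hypothalamus, 0.19 in pituitary, 0.35 in testicle and 0.22 in adrenal on the log2(CPM + 0.5) scale, against 0.20, 0.17, 0.24 and 0.17 for broad genes.

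Variation within groups was also described over 14025 genes, from TMM-scaled log2 CPM without the 5 libraries. The first principal component, found separately in each tissue, took 58.3% of the variance in hypothalamus, 38.6% in pituitary, 80.1% in testicle and 70.1% in adrenal. Its signs were aligned to the testicle, and the weights were averaged over hypothalamus, testicle and adrenal. That averaged component had a negative weight for 112 of 150 members (74.7%), beside 47.2% of broad genes. Whether the shared variation of the members followed it was not tested. The weight lay below the lower quartile of broad genes for 75 members. Of the 112 with a negative weight, 111 had a higher IVP mean in hypothalamus and 111 a lower one in adrenal by CPM. By edgeR's fold changes, which use TMM scaling, 103 were higher in hypothalamus and 29 in adrenal. Over all broad genes, whatever their weight, 69.9% were higher in IVP hypothalamus and 65.7% lower in IVP adrenal by CPM. The like shares for broad genes with a negative weight are not given here, and the sign of the weights is arbitrary. The 38 members with a positive weight were split in hypothalamus, 20 higher and 18 lower, and 29 of them had a higher IVP mean in adrenal. Both groups had like pituitary ratios, with medians of 0.40 and 0.42. Scored on this component, the IVP pituitaries lay at -0.085 to -0.012 and the MOET pituitaries at -0.007 to 0.175, so origin and the component moved together there. With the score as a covariate, edgeR called 24 members higher in the pituitary (background 1.44%), and 0 without calf 3213 (background 0.0125%). The median log2 difference was 0.29 with the score, 0.28 with the score and without calf 3213, and 0.34 without the score. Estimates were above 0 for 149 of 150 members in both fits with the score. The members were kept for high pituitary ratios, so the size and the direction of these estimates reflect the selection and nothing is read from them. Whether the component accounts for the pituitary difference was not tested.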

How the data were processed

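Per the labels' protocols, RNA with an integrity number above 7 was poly(A)-selected and sequenced without strand information as paired reads of 100 bases. The submitters' processing notes name STAR 2.7, HTSeq and the build bosTau9, and the sources used here do not name an annotation release. The authors deposited unnormalized counts for each gene, with library totals of 17357283 to 23380330. Without strand, reads of overlapping genes cannot be told apart.

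Members, lists and tests were chosen with earlier results of these data known. CPM used column totals. edgeR 4.0.16 (R 4.3.3) fitted quasi-likelihood models with filterByExpr (minimum count 10, minimum total 15) and TMM, tested on simulated counts. An SE is the log2 fold change over the root of F. Alternatives used DESeq2 1.42.0 and limma 3.58.1 (voom with sample quality weights). The text was to name the 20 members of highest ratio, members at the thresholds and the 5 most abundant. As 0 IDs paired with symbols, at most 2 IDs were printed, and gene and marker lists were not counted. Pairs of libraries in a group differed by 5.21 to 203 times counting noise. Calf numbers pair the libraries of 1 animal across tissues. The mean correlation of its deviations ran from -0.11 to 0.46 over 7 calves.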

Additional observations from a re-analysis of the deposited data

Results flagged for a closer look

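Among 36 groups of 4 libraries with counts of their own, over 11 members described above and the median member level, 3 held a calf that stood apart from the other 3. Chance alone gives about 1 in 20 such groups. The member ranked 4, ENSBTAG00000004587, had 25.2 CPM in the hypothalamus of IVP calf 5833 and 17.4, 17.9 and 18.2 CPM in the other 3 IVP calves. The member ranked 5 had 15.7 CPM in the testicle of IVP calf 5833 and 9.10, 9.24 and 9.89 CPM in the others, and this calf alone made its testicle ranges overlap. The member ranked 139 had 907.1 CPM in the pituitary of IVP calf 5841 and 757.8, 762.0 and 772.4 CPM in the others. For 2 members the pituitary difference was past edgeR's threshold above the mean difference of the other 3 organs, by 0.60 for ENSBTAG00000004587 and by 0.47 for ENSBTAG00000054656 on the log2 scale. The contrast uses the values that selected the members, which fixes its direction, so it is a description and no evidence of a difference between organs. Neither gene was past the threshold without calf 3213 and adrenal library 5833.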

How the results depend on the processing

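With TMM-scaled CPM, 649 genes met the selection, 106 of the 150 members among them. After TMM scaling, 18 members no longer overlapped in the adrenal, 7 in the hypothalamus and 7 in the testicle. The like shares of broad genes after TMM scaling are not given here, so nothing is read from these counts. With 1 calf left out, 122 to 529 genes met the selection, with 40 to 147 of the 150 members among them. The fewest members were kept without IVP calf 3209. In the pituitary, 23 members were called higher in edgeR with age as a covariate, 24 with the shared-component score, 18 with all 32 libraries in 1 fit, 150 with limma voom, and 31 to 111 with 1 calf left out. The score without calf 3213 gave 0. Every voom fit used sample quality weights and included the 5 libraries that matched the mean of their group. No voom fit was run without those 5, and how the weights treated them was not tested. Nothing is therefore read from the voom counts given here for any tissue. Of all genes, voom called 24.5% higher in the pituitary, and age 0.81%. In the hypothalamus, higher and lower calls were 92 and 13 with voom and 13 and 2 with all libraries in 1 fit, and DESeq2 called 6 higher. Of all genes, voom called 29.5% higher and 24.2% lower there, and the fit of all libraries 6.15% and 4.92%. In the testicle, higher calls were 4 with DESeq2 (1 without calf 3213), 71 with voom, 16 with the score (1 without calf 3213) and 3 with all libraries, and lower calls were 3 with voom and 1 with the score. Of all genes, voom called 17.4% higher and 16.3% lower there, and the score 7.17% and 5.08%. The score without calf 3213 called 0.557% higher, and the fit of all libraries 0.471%. In the adrenal, higher and lower calls were 56 and 64 with voom, 3 and 1 with age, 0 and 0 with the score, and 0 and 0 without calf 3213 and library 5833, with or without the score. Further adrenal values were 17 lower with DESeq2, 3 higher with DESeq2 without those libraries, and 1 lower with all libraries in 1 fit. Of all genes, voom called 43.0% higher and 42.0% lower in the adrenal, and age 9.70% and 9.11%. DESeq2 called 20.9% lower there, and the fit of all libraries 12.2%. With 1 calf left out the members' counts were 3 to 22 higher (background 8.10% to 27.2%) and 0 to 42 lower (6.95% to 25.3%).

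For the pituitary effect minus the mean of the other organs, the calls were 1 with DESeq2 size factors (background 0.236%) and 8 with DESeq2 (0.658%). They were 0 without a filter (0.128%), 0 with age (0.181%), and 0 to 4 with 1 calf left out (0.0325% to 0.452%). The calf as a replicate block gave 1 (background 0.258%), and gave 0 without the 5 libraries, as did edgeR and DESeq2 without a block. Against single organs, leaving out 1 calf gave 0 to 17 for hypothalamus (background 0.0271% to 1.94%). It gave 0 to 2 for testicle (0.0108% to 0.528%) and 0 to 30 for adrenal (0.108% to 9.51%). The block with all libraries gave 8, 0 and 39 for these organs. The fit without the 5 libraries, which had no block, gave 0 for all 3 (background 0%, 0% and 0.0271%). In MOET calves, leaving out 1 calf gave 50 to 73 members higher (background 29.3% to 37.2%) and 23 to 36 lower (28.8% to 35.9%). The block gave 68 and 34 (34.9% and 34.5%).

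For the 20 members of highest ratio in IVP pituitary, 114 of 340 values over 17 alternatives no longer passed the threshold, while their direction was set by the selection. The comparisons against single organs and those without the 5 libraries were added after the data were seen. Their number of calves with own counts, 3 or 4 per group, limits what can be detected, and the causes of the changes were not tested.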
